A study of Mus musculus with 6 samples.

Results

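The genes described are the microtubule motors, namely the kinesins (symbols starting with Kif and a number), the kinesin light chains Klc1 to Klc4, the cytoplasmic dynein and dynein light chain genes (Dync1, Dync2, Dynl) and the dynactin genes Dctn1 to Dctn6. They were chosen by gene symbol, with earlier results of these data already known. The rule found 59 of the 18193 named genes, made up of 37 kinesin, 3 kinesin light chain, 13 dynein and 6 dynactin genes, read by 141 probe sets. Of the 59 genes, 36 lay in the upper part of the signal distribution, split at its median, and were tested. The other 23 were too dim and were left out. RNA came from mouse hippocampus and was read on 6 one-colour arrays. On 3 arrays the RNA was that bound by transgenic HuD and recovered with anti-myc antibody on protein-G beads. On 2 arrays it came from protein-G beads loaded with non-immune IgG, and on 1 array it was the total input. The labels give no promoter for the transgene, no strain, age or number of animals, and no time. HuD array 1, IgG array 1 and the input have titles that end in le1 and the others in e1_le1, and array numbers only name the arrays. The labels do not say whether the IgG and input RNA came from transgenic tissue.

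Kinesins and dynein are ATP-driven motors that carry cargo along microtubules. In axons most kinesins move vesicles, mitochondria and RNA granules away from the cell body, and cytoplasmic dynein, together with its activator complex dynactin, moves cargo back towards it. HuD, encoded by Elavl4, binds RNA in neurons and stabilises many of the mRNAs it binds.

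Values are array signals on a linear scale, and differences are between group means of log2(signal + 32), so folds are on that scale and understate changes of dim genes. Tests used limma over all 9097 tested genes, with Benjamini-Hochberg adjusted p below 0.05 as the threshold, and ± marks the standard error of a log2 difference. Every array had been scaled to 1 common level, so higher and lower mean a larger or smaller share of that array's signal. In bulk RNA, fewer cells of a type, less RNA per cell and, in a pulldown, less of the RNA recovered cannot be told apart. Elavl4 itself read 2294, 2010 and 1689 on HuD arrays 1 to 3, 766 and 642 on IgG arrays 1 and 2, and 597 in the input (1.46 ± 0.25 between the pulldowns, limma adjusted p = 0.0011). Summed signals of 5 neuronal markers (Snap25, Syt1, Rbfox3, Stmn2 and Tubb3) were 21252 to 27145 on HuD arrays, 17009 to 19238 on IgG arrays and 18316 in the input. Of these markers 1 was higher (Snap25, 0.84) and 1 lower (Rbfox3, −0.62) in HuD than in IgG pulldowns, and Syt1 (0.24), Stmn2 (−0.71) and Tubb3 (0.74) did not pass. Of 4 markers of hippocampal neurons, Neurod6, Wfs1 and Calb1 were tested and did not pass, and Prox1 was dim, at 9.8 to 49.7 on all arrays. Sums of 4 astrocyte markers were 4948 to 6197 on HuD arrays, 11886 to 12865 on IgG arrays and 10952 in the input. Of these 4 markers 3 passed the threshold and were lower, beside 34% of all tested genes that were lower. All 3 tested microglia markers were also lower, with sums over 4 markers of 975 to 1491 against 2238 to 3482, and 3627 in the input. Sums of 3 oligodendrocyte markers, 2 of them lower, were 8600 to 12563 against 12346 to 18905, with 9871 in the input. Those of 2 choroid plexus markers, which did not pass, were 11923 to 15087 against 16065 to 18481, with 9131 in the input. The oligodendrocyte sum was mostly Mbp, which did not pass, and the choroid plexus sum mostly Ttr. Of the endothelial markers only Cldn5 was bright enough to test, and it was lower (−1.25). Hba-a1 of blood and Foxj1 of ependyma were too dim to test. The 2 dividing-cell markers, Mki67 and Top2a, summed to at most 46.4 on any array, and the part of any marker in the motor values was not tested.

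**Figure D1:**
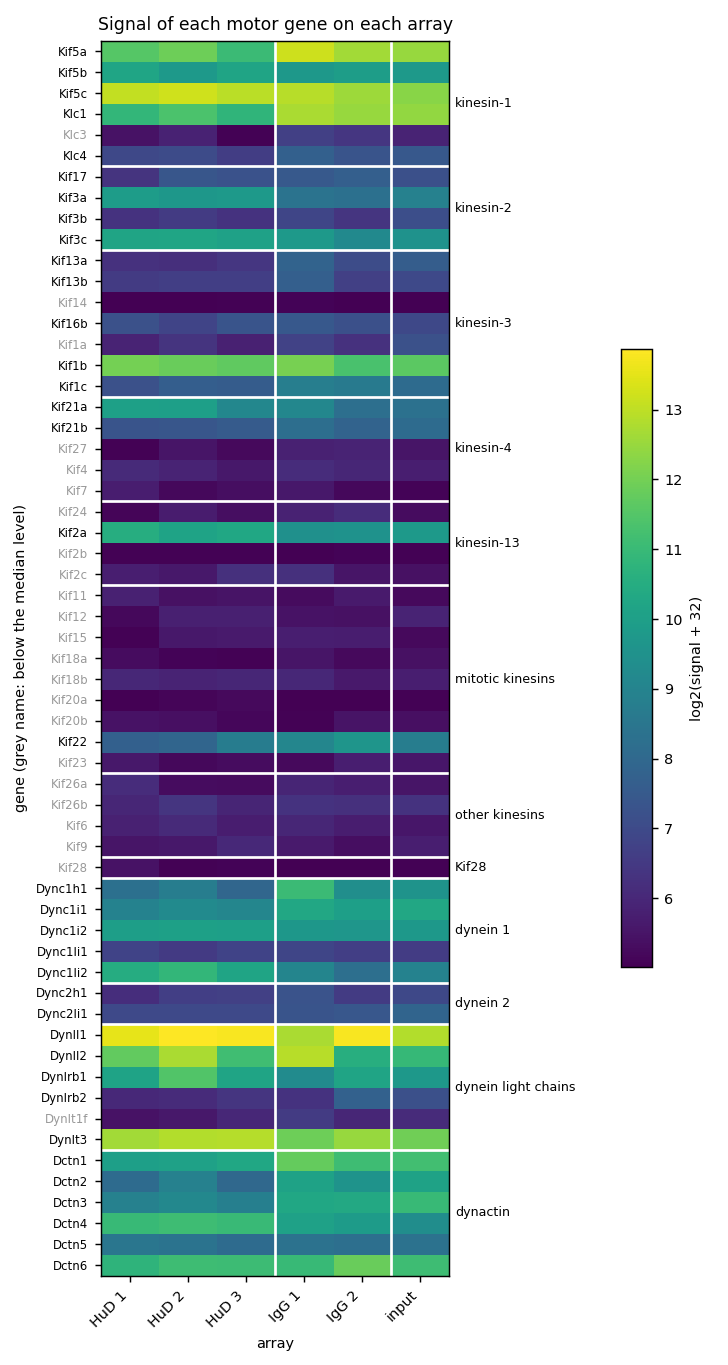
Signal of all 59 motor genes on each array as log2(signal + 32), 1 row per gene and 1 column per array, grouped by family, with grey names for the 23 genes below the median level. Of the mitotic kinesins all but Kif22 are dark on every array, while Kif5a, Kif5c, Klc1, Dynll1 and Dynlt3 are bright throughout.

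The comparison of HuD with IgG pulldowns asks which motor transcripts took a larger share of the RNA bound with HuD than of the bead background. Of the 36 tested genes 6 rose, namely Dync1li2, Kif3a, Dctn4, Kif21a, Kif2a and Kif3c. In the opposite direction 11 fell, namely Dync1h1, Klc1, Dctn2, Kif5a, Dctn3, Dctn1, Kif1c, Kif22, Kif13a, Dync1i1 and Klc4. The remaining 19 did not pass. The shares of 16.7% higher and 30.6% lower were close to those of all tested genes, of which 21.5% rose and 34% fell, so the motor genes as a set did not stand apart. Their median log2 difference was −0.32, beside −0.28 for all genes. Under 75th percentile, median and quantile scaling of the arrays the median of all genes became 0.06, 0.01 and −0.12, and that of the motor genes lay between −0.06 and 0.03 of it. The same scalings moved the higher share of all calls from 38.8% to 62.1%, 58.2% and 48.1%.

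All 17 genes that passed kept their sign when the arrays whose titles end in le1 and those ending in e1_le1 were compared separately. For 16 of them the HuD and IgG arrays did not overlap, so neither this split nor leaving out an array could change their sign. That share was not counted over all genes, so it is not a result about the motor genes. None of the 17 changed direction under the 13 other settings, and 12 of the 17 still passed whichever array was left out. The number of rises fell from 6 to 3 without HuD array 1.

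**Figure D2:**
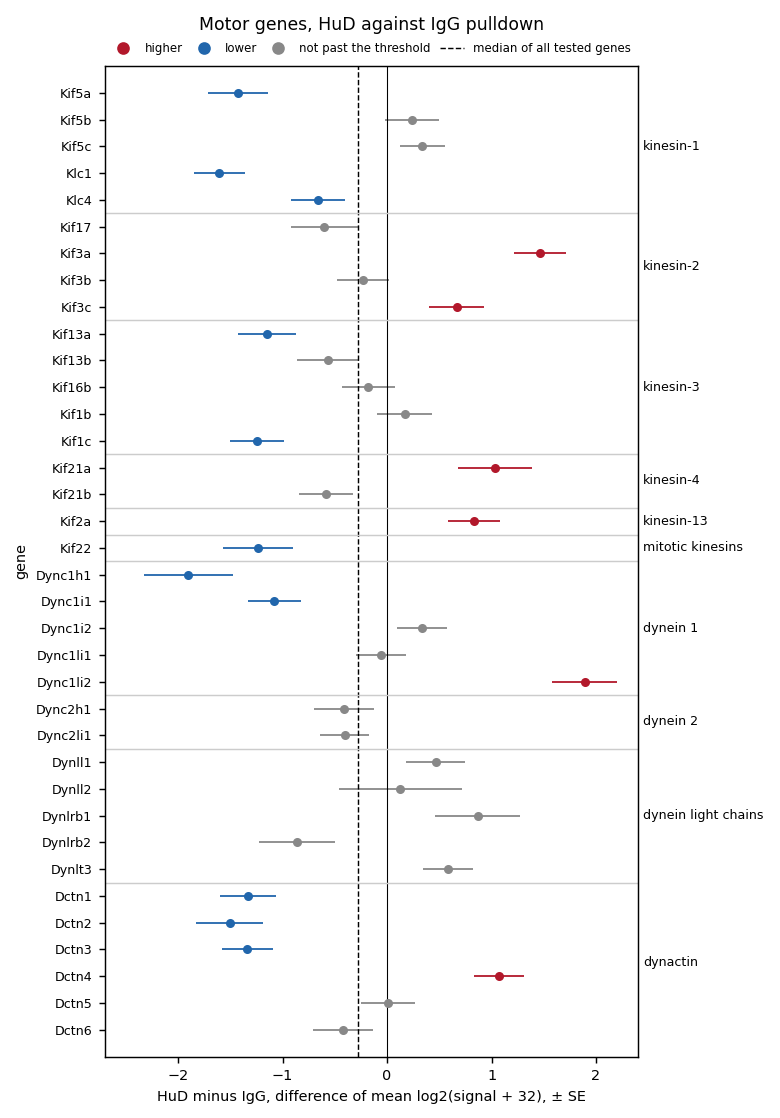
Difference between HuD and IgG pulldowns in mean log2(signal + 32) for the 36 tested motor genes, with bars for the standard error and colour for the call. Dynein 1 and dynactin each hold both rises and falls, the tested kinesin-1 and kinesin-3 genes hold no rise, and the dashed line marks the median of all tested genes at −0.28. Of all tested genes 21.5% rose and 34% fell, and family counts were not tested against these shares.

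Kinesin-1 is the main motor of fast axonal transport, a tetramer of heavy chains (Kif5a, Kif5b or Kif5c) and cargo-binding light chains (Klc1 to Klc4). Of its 5 tested genes 3 fell and 0 rose. Of all tested genes 34% fell and 21.5% rose. Counts of this family and those below rest on few genes and were not tested against these shares. Klc1 read 1854, 2581 and 1777 on HuD arrays 1 to 3, 6770 and 5823 on IgG arrays 1 and 2 and 5488 in the input. Both bead controls stood near the input and all HuD arrays far below them, a 3.04-fold difference between the pulldowns (−1.61 ± 0.24, limma adjusted p = 0.000594). Kif5a, the neuron-restricted heavy chain, read 2936, 3811 and 2073 with HuD, 9282 and 6400 with IgG and 5773 in the input. It was 2.68-fold lower (−1.42 ± 0.29, adjusted p = 0.0022). Klc4 was lower by a small margin (−0.66 ± 0.26, adjusted p = 0.049) and lost its call without any single HuD array (−0.69, −0.75 and −0.54) and without IgG array 1 (−0.45). It passed under only 2 of the 13 other settings.

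The other heavy chains gave no call. Kif5b, the ubiquitous heavy chain, read 1162, 834 and 1140 with HuD, 809 and 941 with IgG and 866 in the input, and the groups overlapped (0.24 ± 0.26, adjusted p = 0.455). Kif5c, like Kif5a mainly neuronal, read 8471, 9615 and 7922 with HuD, 7737 and 6055 with IgG and 5010 in the input. Its HuD arrays lay just above the IgG arrays (0.33 ± 0.21, adjusted p = 0.202). Centred on the 75th percentile Kif5c passed, at 0.74. Klc3, the light chain known from sperm tails, was too dim to test, between 1.77 and 70.3 on all arrays.

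Kinesin-2 motors serve intraflagellar and dendritic transport, and Kif3a pairs with Kif3b or Kif3c. Of 4 tested genes 2 rose and 0 fell. Kif3a read 923, 791 and 868 on HuD arrays, 305 and 277 on IgG arrays and 448 in the input. All HuD arrays stood above the input and both IgG arrays below it, a 2.76-fold difference (1.47 ± 0.25, adjusted p = 0.000967). Kif3c, at 1129, 1163 and 1056 with HuD against 847 and 561 with IgG and 704 in the input, was 1.59-fold higher (0.67 ± 0.26, adjusted p = 0.048). That call was lost without HuD array 1 (0.66), 2 (0.64) or 3 (0.71), and without IgG array 2 (0.38). Kif3b (−0.23) and Kif17, the homodimeric motor of dendritic vesicles (−0.60), did not pass.

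Kinesin-3 motors carry synaptic vesicle precursors, mitochondria and endosomes. Of 5 tested genes 2 fell and 0 rose. Kif1c, a fast motor also active outside neurons, had a HuD mean of 149 ± 27.1 (SD, n = 3) and an IgG mean of 392 ± 24.1 (SD, n = 2), with 244 in the input, a 2.36-fold difference (−1.24 ± 0.26). Kif13a, an endosome motor, was 2.22-fold lower (−1.15 ± 0.27). Kif1b, which carries mitochondria and vesicle precursors, read 4118, 3679 and 3265 with HuD, 4250 and 2507 with IgG and 3157 in the input. Its HuD arrays fell between the IgG arrays (0.17 ± 0.27, adjusted p = 0.61). Kif13b (−0.57) and Kif16b (−0.18) did not pass either, though Kif13b did without IgG array 2 (−1.06) and was at −0.074 without IgG array 1. Kif1a, the classic motor of synaptic vesicle precursors, was below the tested level, at 27.6, 48.4 and 25.0 with HuD, 76.2 and 45.5 with IgG and 117 in the input. It was the brightest of the untested genes.

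Among the remaining kinesins, Kif21a, a kinesin-4 motor that restrains microtubule growth, read 1014, 989 and 515 with HuD, 520 and 272 with IgG and 290 in the input. HuD array 3 thus met IgG array 1 while the other HuD arrays were higher, and the difference was 2.04-fold (1.03 ± 0.36, adjusted p = 0.029). It lost the call when HuD array 1 (0.87), HuD array 2 (0.89) or IgG array 2 (0.60) was left out. Its relative Kif21b did not pass (−0.58), except without IgG array 2 (−0.78), and was at −0.39 without IgG array 1. Kif2a, a kinesin-13 that shortens microtubules at their ends and limits axon branching, read 1462, 1090 and 1230 with HuD against 665 and 712 with IgG and 844 in the input. All HuD arrays were above the controls (1.78-fold, 0.83 ± 0.25, adjusted p = 0.016), and the call was lost without HuD array 1 (0.72) or 3 (0.85).

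Mitotic kinesins other than Kif22 gave little signal. Of 9 such genes on the array only Kif22, a chromosome-arm motor, was bright enough to test, and it was 2.35-fold lower in the HuD pulldowns (−1.23 ± 0.33, adjusted p = 0.0096). It lost the call without HuD array 1 (−1.04). Its other 2 probe sets read at most 12.8 on any array, and the bright one has a suffix that Affymetrix gives to sets whose probes can match other sequences. The level of Kif22 RNA is therefore uncertain. Over the 23 untested genes, which include Kif11, Kif15, Kif20a and Kif23 of the spindle, the highest signal on any array was 117, and 19 stayed under 50 on all arrays. Kif28, which is in none of the family lists, reached 11.6 on HuD array 1 and at most 2.41 elsewhere.

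Cytoplasmic dynein 1 is built on the ATPase heavy chain Dync1h1, with intermediate chains that contact dynactin and light intermediate chains that bind cargo adaptors. Its 5 genes divided, with 1 rise, 2 falls and 2 not past. Dync1li2, a light intermediate chain, read 1411, 1850 and 1141 with HuD, 491 and 269 with IgG and 461 in the input. Every HuD array lay above both controls and the input (3.71-fold, 1.89 ± 0.31, adjusted p = 0.000879), and this was the largest rise of all tested motor genes. Dync1h1 read 279, 399 and 212 with HuD, 2091 and 640 with IgG and 724 in the input, the largest fall (3.73-fold, −1.90 ± 0.43, adjusted p = 0.0039).

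The size of the Dync1h1 fall rests on IgG array 1, which stood far above the input. Without that array the difference was −1.07 and still passed. Dync1i1, the neuron-enriched intermediate chain, read 461, 573 and 513 with HuD, 1252 and 1000 with IgG and 1260 in the input (2.11-fold lower, −1.08 ± 0.25, adjusted p = 0.0047). Its ubiquitous counterpart Dync1i2 read 981, 1015 and 994 with HuD, 789 and 778 with IgG and 814 in the input. These 3 HuD arrays were tightly grouped above the controls, but the difference of 0.33 ± 0.24 did not pass. Dync1i2 passed under 1 of the 13 other settings. Dync1li1 overlapped (−0.06). Of the dynein 2 genes of cilia, Dync2h1 (−0.41) and Dync2li1 (−0.41) did not pass, though Dync2h1 did without IgG array 2 (−0.77) and was at −0.053 without IgG array 1.

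The dynein light chains are small dimeric proteins at the base of the motor, and some also bind many partners outside it. None of the 5 tested genes passed, and 2 had an unadjusted p below 0.05. Dynll1 read 11785, 14877 and 14020 with HuD, 6806 and 14018 with IgG and 7358 in the input. IgG array 2 lay among the HuD arrays and IgG array 1 beside the input (0.46 ± 0.28, adjusted p = 0.177). Dynll1 passed under 3 of the 13 other settings, among them without IgG array 2 (0.98), and without IgG array 1 it was at −0.05. Dynll2 read 3366, 6768 and 2234 with HuD, 7762 and 1473 with IgG and 1941 in the input. HuD array 2 and IgG array 1 were high together, and the difference of 0.13 ± 0.59 became 1.31, past the threshold, without IgG array 1 and −1.06 without IgG array 2.

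The other light chains passed or missed the threshold depending on single arrays and on the scaling. Dynlt3, a light chain of the Tctex type, had a HuD mean of 7085 ± 679 (SD, n = 3) against 4791 ± 1319 (SD, n = 2) with IgG and 3880 in the input (0.58 ± 0.24, adjusted p = 0.053). It passed without IgG array 2 (0.87) and under 75th percentile, median and quantile scaling (0.99, 0.92 and 0.53), and was at 0.30 without IgG array 1. The roadblock chain Dynlrb1 was at 0.87 ± 0.41 and passed without HuD array 3 (1.07) or IgG array 2 (1.31) and under 75th percentile and median scaling (1.26 and 1.19). Leaving out IgG array 1 gave 0.42 for Dynlrb1, and leaving out HuD array 2 gave 0.44. Dynlrb2 was at −0.86 ± 0.37 and passed without HuD array 3 (−0.97) or IgG array 1 (−1.59), and was at −0.13 without IgG array 2. Dynlt1f was too dim to test. A further set of probes shared by Dynlt1a, Dynlt1b, Dynlt1c and Dynlt1f, which cannot be assigned to 1 gene, read 344, 467 and 402 with HuD, 430 and 1434 with IgG and 763 in the input.

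Dynactin joins dynein to cargo and starts its movement, through the long arm of Dctn1 held to an actin-like filament by Dctn2 and Dctn3. These 3 arm and shoulder genes all fell. Of all tested genes 34% fell, and the count was not tested against that share. Dctn2 read 245, 442 and 226 with HuD, 1089 and 720 with IgG and 1067 in the input, 2.84-fold lower (−1.51 ± 0.32, adjusted p = 0.0031). Dctn3 read 449, 538 and 428 with HuD, 1204 and 1263 with IgG and 1972 in the input, 2.52-fold lower (−1.34 ± 0.25, adjusted p = 0.0015). Dctn1 read 991, 1038 and 1221 with HuD, 3496 and 2179 with IgG and 2293 in the input, 2.51-fold lower (−1.33 ± 0.27, adjusted p = 0.0023). In all of them the highest HuD array was below the lowest control.

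Of the genes of the pointed end of dynactin only Dctn4 rose, in its brightest probe set. That set read 2004, 2167 and 2028 with HuD, 1041 and 898 with IgG and 615 in the input, 2.10-fold higher (1.07 ± 0.24, adjusted p = 0.0036). A dimmer Dctn4 set at the tested level was at −0.43 and did not pass, and the call was lost with probe sets averaged (0.09). Dctn5 (0.01) and Dctn6 (−0.42) did not pass, and Dctn6 passed without IgG array 1 (−0.86) and under quantile scaling (−0.64) but was at 0.024 without IgG array 2. The median of the 6 genes was −0.87, with 1 rise, 3 falls and 2 not past.

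**Figure D3:**
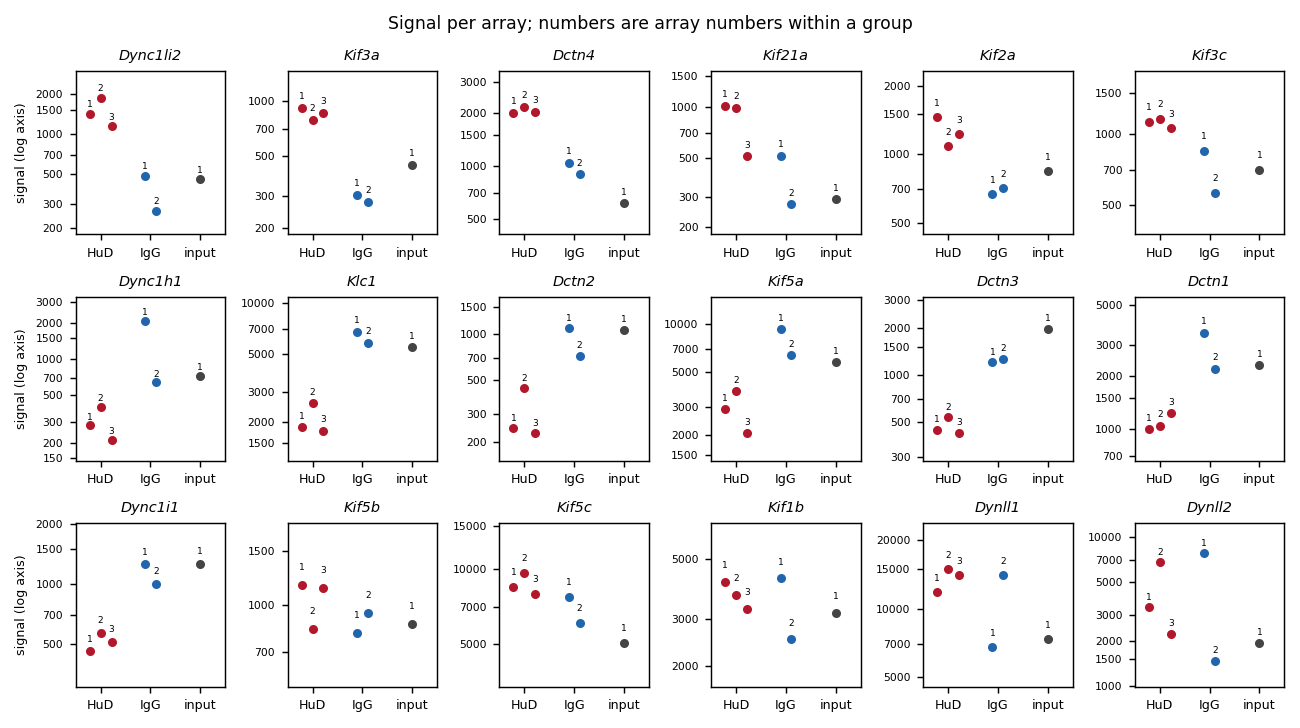
Signal of 18 motor genes on each array, on log axes that differ between panels, with points numbered by array and no bars because each point is 1 array. The upper row holds the 6 rises, the middle row the 6 largest falls, and the lower row shows Dynll2 high on HuD array 2 and IgG array 1.

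Probe sets of 1 gene did not always move alike. The gene values above come from the brightest one. In a fit of all 34945 named probe sets, 7.11% of probe sets rose and 10.4% fell, and of the 141 motor probe sets 8 rose and 14 fell. Among the 17 genes with at least 2 probe sets at the tested level, 8 had differences of both signs. For Kif3a the brightest set rose (1.47, adjusted p = 0.0051). A second Kif3a set read 455, 401 and 382 with HuD against 402 and 351 with IgG (0.12). The other 2, at −0.78 and −0.70, did not pass, the dimmer of them reading 114, 115 and 86.6 with HuD against 281 and 126 with IgG.

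Kif3c had one set at 0.67 and one at −0.63, neither past the threshold in this fit. The brighter Klc4 set (−0.66) did not pass in this fit, while a dim one, at 3.6 to 27.9 on all arrays, rose (0.58, adjusted p = 0.042). Dctn4 had a bright set that rose (1.07) and a dimmer one at −0.43 that did not pass. For Dync1li2 the second set read 668, 443 and 664 with HuD, 496 and 430 with IgG and 434 in the input, a difference of 0.31 that did not pass. The Dynll1 sets were all above 0, and its dimmest set, at 715, 742 and 768 with HuD, 300 and 248 with IgG and 305 in the input, rose (1.34, adjusted p = 0.0066). The second Dynll2 set fell (−1.26, adjusted p = 0.022), at 220, 132 and 229 with HuD, 420 and 592 with IgG and 432 in the input.

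The sets of the other genes moved alike in some cases. Kif2a had 2 sets that both rose (0.83 and 1.27), and Kif21a had 2 at 1.03 and 0.88, neither past in this fit. Kif13a fell in its brightest set (−1.15) and in a dimmer one (−1.52), which has the same suffix as the bright Kif22 set. Its remaining sets, at most 61.2 on any array, were at −0.09, −0.21 and 0.07 and did not pass. One Dynlt3 set rose (1.07), with 2 others at 0.88 and 0.58 that did not pass. For Kif1b, 1 set fell (−1.20), and those at −1.15, −0.35 and 0.17 did not pass, so its sets differed in sign. When all sets of a gene were averaged, the calls of Dctn4 (0.09), Kif3a (0.03), Kif3c (0.02), Kif21a (0.63), Kif1c (−0.19), Kif22 (−0.43) and Klc4 (−0.04) were lost. Calls that held but shrank by over 1.5 times were those of Dync1li2 (1.10), Kif2a (0.52), Dync1h1 (−1.07), Klc1 (−0.90), Kif5a (−0.63) and Kif13a (−0.58). The average, here and below, takes in sets under the tested level, and differences of dim sets are understated. The other Kif1c sets read at most 39.3 on any array, the second Dync1h1 set at most 21.5 and the other Kif5a sets at most 40.5. For these genes a smaller average therefore does not show that sets disagree. The Kif3a and Kif3c sets were all at the tested level and differed in sign. Which transcripts each set reads was not tested.

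**Figure D4:**
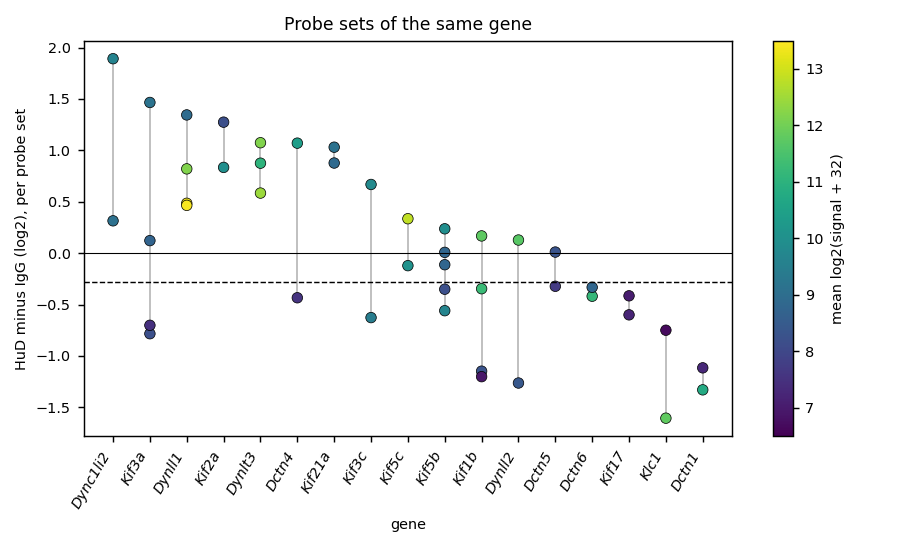
Difference between HuD and IgG pulldowns in log2(signal + 32) for each probe set at the tested level, for the 17 motor genes with at least 2 such sets, coloured by mean level. The sets of Kif3a run from −0.78 to 1.47 and those of Dynll1 from 0.46 to 1.34.

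The comparison of HuD with the input asks how the bound RNA differs from the unselected RNA of the tissue. It shares the HuD arrays with the comparison above, so they are not independent of each other, and the single input array was assumed to vary like the others. Of 36 genes 6 rose, 16.7% against 15.7% of all genes, and 8 fell, 22.2% against 25.9%. The motor genes' median log2 difference was −0.15, beside −0.32 for all genes. Dctn4 (1.70 ± 0.30), Dync1li2 (1.58 ± 0.40), Kif21a (1.38 ± 0.45), Kif3a (0.89 ± 0.31), Dynlt3 (0.86 ± 0.30) and Kif5c (0.78 ± 0.27) were higher, with adjusted p between 0.0032 and 0.040. Dctn3 (−1.999 ± 0.31), Dctn2 (−1.76 ± 0.41), Klc1 (−1.41 ± 0.31), Kif13a (−1.32 ± 0.35), Dync1i1 (−1.24 ± 0.32), Dctn1 (−1.07 ± 0.34), Kif5a (−1.01 ± 0.36) and Dync2li1 (−0.91 ± 0.30) were lower, with adjusted p between 0.0022 and 0.043.

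Dync1h1 did not pass against the input (−1.24 ± 0.54, adjusted p = 0.085). Of the 14 calls, 6 held whichever pulldown array was left out, those of Dctn2, Dctn3, Dctn4, Klc1, Kif13a and Dync1li2, and 4 held under every alternative. The single input array could not be left out, and leaving out an IgG array does not change these differences. How far the calls rest on the input array was therefore not tested. With probe sets averaged the calls of Dctn4 (0.27), Kif13a (−0.42), Kif3a (−0.37), Dynlt3 (0.59), Kif5c (0.49) and Kif5a (−0.45) were lost, and Dync1li2 held at 0.99. Without HuD array 1 the calls of Kif21a (1.21), Kif3a (0.84), Dynlt3 (0.94), Kif5c (0.80), Dync1i1 (−1.17), Dctn1 (−1.01), Kif5a (−1.03) and Dync2li1 (−0.91) were lost. Leaving out HuD array 2 ended those of Kif21a (1.23), Dynlt3 (0.83), Kif5c (0.71), Dctn1 (−1.04) and Dync2li1 (−0.91), and leaving out HuD array 3 those of Kif3a (0.89), Dynlt3 (0.81), Kif5c (0.85), Kif5a (−0.78) and Dync2li1 (−0.90). The higher share of all calls in this comparison was 37.7%, and 68.9%, 27.2% and 48.7% under 75th percentile, median and quantile scaling.

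The IgG pulldowns were set against the input to see what the beads alone changed. By limma 0 of the 36 motor genes passed and 0 had an unadjusted p below 0.05. Of all genes 0.022% were higher and 0% lower, and 641 of 9097 had an unadjusted p below 0.05. The motor differences largest in each direction were 0.80 for Dynll2, for which IgG array 1 was the high one, and −0.66 for Dctn3. With 2 arrays against 1, standard errors of motor genes ran up to 0.79, so changes of this size were not detectable for such genes.

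Partners of the motors were described from a list of 56 adaptors, regulators and cargo linkers, of which 50 were on the array and 39 tested. Of these 5 rose and 15 fell between HuD and IgG pulldowns, 12.8% and 38.5% beside the 21.5% and 34% of all genes. The list's median was −0.31. Rhot1, the mitochondrial GTPase that recruits motors through the Trak adaptors, read 726, 746 and 848 with HuD, 242 and 178 with IgG and 167 in the input, 3.35-fold higher (1.74 ± 0.26, adjusted p = 0.000527). Its paralog Rhot2 (−0.53), Trak1 (0.35) and Trak2 (−0.22) did not pass.

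Hook3, an activating adaptor of dynein, was 2.89-fold higher (1.53 ± 0.27), at 1150, 812 and 1138 against 372 and 297. Capza2 (1.09 ± 0.24) and Capza1 (0.76 ± 0.27), which cap the dynactin filament, and the torsin gene Tor1a (0.85 ± 0.28) also rose. The Tor1a call was lost without any of the HuD arrays (0.94, 0.76 and 0.85) or IgG array 1 (0.52), and that of Capza1 likewise (0.70, 0.83 and 0.74, and 0.40). The Capza1 set also has the suffix of sets whose probes can match other sequences. Kifap3, the subunit that binds cargo for Kif3a, did not pass (−0.02), nor did Pafah1b1, the dynein regulator of lissencephaly (0.50). Rhot2, Trak1, Trak2, Kifap3 and Pafah1b1 were picked from the list after their values were seen.

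The largest falls of the list were those of Mapk8ip3, a scaffold between kinesin and dynein (−1.98 ± 0.38), and Htt, the huntingtin gene, whose protein helps recruit both motors (−1.87 ± 0.38). Mapk8ip3 read 117, 93.9 and 67.1 with HuD, 767 and 261 with IgG and 355 in the input. Without IgG array 1 Mapk8ip3 was at −1.25 and Htt at −1.13, both still past. Nudc, a dynein cofactor (−1.55 ± 0.31), Snph, the anchor of axonal mitochondria (−1.52 ± 0.42), and Bbs4, a ciliary transport protein (−1.42 ± 0.30), also fell. Snph did not pass without IgG array 1 (−0.69). With probe sets averaged, Rhot1 was at 0.81, Hook3 at 0.75, Mapk8ip3 at −0.72, Htt at −0.91 and Bbs4 at −0.80, all smaller by over 1.5 times and still past. Of the 20 calls in the list, 10 held whichever array was left out. Without HuD array 1, 2 or 3 the rises numbered 3 each, and without IgG array 1 the falls numbered 9.

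**Figure D5:**
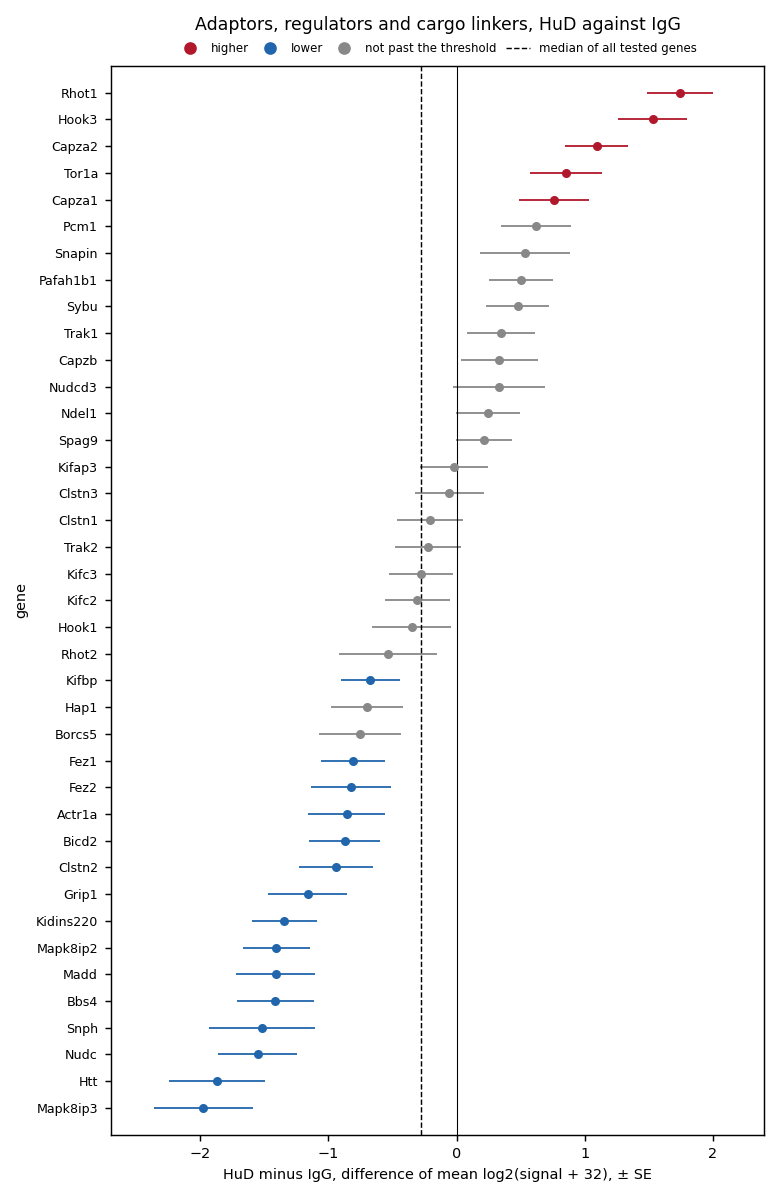
Difference between HuD and IgG pulldowns in mean log2(signal + 32), with standard errors, for the 39 tested adaptors, regulators and cargo linkers in order of the difference. Rhot1 and Hook3 stand at the top with 1.74 and 1.53, and Mapk8ip3 and Htt at the bottom.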

How the data were processed

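The authors deposited 1 linear intensity for each probe set of each array. The mean without the lowest and highest 2% was 150.0 on every array, so the authors had scaled the arrays before deposit. The software is not given in the sources used here. A platform annotation paired 34945 probe sets other than array controls with 1 gene symbol and 932 probe sets with several. The entrez identifiers were looked up in a RefSeq table of GRCm38.p6, used for names only, and 0 symbols changed. Each gene was represented by its probe set with the highest mean, and genes at or above the median mean log2(signal + 32) were tested across all 9097 genes with limma 3.58.1 in R 4.3.3 (1 mean per group, eBayes with trend, 3 residual and 8.4 prior degrees of freedom). Precision is set by how few arrays there are. The labels do not say that arrays are separate preparations, so p-values cover array-to-array spread alone, and that may be technical. That spread was larger for the IgG pair (SD of log2 differences 0.616) than for HuD pairs (0.314 to 0.457). The fit was also run on simulated data with the same spread in all groups, so that check does not cover the larger IgG spread. Members, lists and named genes were chosen with earlier results of these data known. The text names every motor gene past the threshold between HuD and IgG, up to 8 each way in the other comparisons, a fixed set of motors and the 5 largest rises and falls of the partner list. Alternatives were the pseudocount, filter, probe set choice, array scaling, the title suffix as a block, and leaving out each pulldown array.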

Additional observations from a re-analysis of the deposited data

How the results depend on the processing

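Of the 17 calls between HuD and IgG pulldowns, 8 held under all 13 other settings (Dctn1, Dctn2, Dctn3, Dync1h1, Dync1li2, Kif13a, Kif5a and Klc1). With probe sets averaged 2 motor genes rose, and with 75th percentile centring 11. Leaving out 1 array gave 3 to 7 rises and 9 to 14 falls. For the partner list, 75th percentile and median centring gave 9 and 8 rises and 9 and 9 falls, and leaving out 1 array 3 to 7 rises and 9 to 17 falls. Against the input, no filter gave 2 rises and 4 falls, averaged probe sets 2 rises, median centring 3 rises and 75th percentile centring 4 falls. Leaving out 1 pulldown array there gave 2 to 7 rises and 4 to 11 falls. Kif3a, higher in the main setting, was at −0.37 with averaged probe sets and did not pass.

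Medians between HuD and IgG are given for families with at least 3 tested genes, a limit set after the values were seen. The median of all motor genes was 0.0075 with 75th percentile centring, −0.045 with median centring, −0.093 with quantile normalization and −0.029 within e1_le1, and −0.36 to −0.054 with 1 array left out. That of kinesin-1 was −0.40 with the largest pseudocount, −0.18 with averaged probe sets and −0.34, −0.39 and −0.36 under the 3 scalings in that order. For kinesin-2 it was −0.14 with averaged probe sets, 0.55 and 0.50 with 75th percentile and median centring, −0.083 within le1, 0.50 within e1_le1 and −0.046 to 0.48 with 1 array left out. Kinesin-3 was at −0.19 with averaged probe sets, −1.12 within le1, −0.082 within e1_le1 and −1.06 to −0.074 with 1 array left out. Dynein 1 was at 0.23, 0.18 and 0.21 under the scalings. The dynein light chains, at 0.46, were at 0.87, 0.80 and 0.51 under the scalings and 0.30 to 0.87 with 1 array left out. Dynactin was at −0.80 with the largest pseudocount, −0.48, −0.54 and −1.02 under the scalings, −0.78 within le1 and −0.93 to −0.67 with 1 array left out. The cause of these shifts was not tested.

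With the title suffix as a replicate block, 5 motor genes fell against the input, and Klc4 (−0.62) lost its call against IgG, where Dynlrb2 (−0.99) and Dynlt3 (0.52) passed. The suffix is no stated pairing. Deviations of HuD and IgG arrays of the same suffix correlated across genes at −0.03, −0.34 and 0.40. With 2 IgG arrays their deviations mirror each other, so these values cannot show whether the suffix pairs the arrays. How many arrays were run limits all of these values.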
